A study of Drosophila melanogaster with 20 samples.

Results

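The data are RNA levels in fly heads after RNA interference against ATM in neurons, driven by Elav-GAL4. They come from 8 of the 20 arrays of the series, taken by their sample titles: 4 arrays of Elav-ATMi flies and 4 of Elav-GAL4 flies. ATM is a protein kinase that responds to DNA double-strand breaks, and tefu is its gene in Drosophila. In the GAL4/UAS system a yeast transcription factor, expressed in a chosen cell type, switches on a transgene that carries its binding site. The elav promoter is active in neurons, so the hairpin RNA that targets ATM is made there, while head RNA also holds the transcripts of glia, eyes, muscle, fat body and cuticle.

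Elav-ATMi flies carried 1 copy of the Elav-GAL4 driver and 1 copy of the UAS-RNAiATM transgene. Elav-GAL4 control flies carried the driver alone. Both had the w1118 genetic background, were kept at 25°C, were collected 0 to 3 days after eclosion, and were held for 3 more days before RNA was taken from the heads, at a labelled age of 4 to 6 days. The control lacked the UAS transgene, so RNA interference and presence of the transgene cannot be told apart. In whole-head RNA, fewer cells of a type and less RNA per cell cannot be told apart either. The labels call the replicates biological without saying how they were made, and p-values here cover only how these 4 samples per genotype vary, which may be technical. For comparison, the ElavC155 driver, which sits on the X chromosome and is also neuronal, had 2 ElavC155-ATMi and 2 ElavC155-GAL4 arrays with the same background, temperature and age. Levels of a few transcripts are also given for 4 other groups of 2 arrays. Repo-ATMi and Repo-GAL4 flies, with and without UAS-RNAiATM, carried the glial Repo-GAL4 driver and shared the background, temperature and age of the Elav flies. Flies homozygous or heterozygous for the ATM8 allele had another genetic background, pp e1, and were reared at 18°C until collection 0 to 3 days after eclosion, then held for 3 days at 25°C.

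Each of the 15473 rows is a FlyBase transcript identifier with a log2 RMA level, and rows may be transcripts of the same gene. A gene table of the fly reference tied 17 of these rows to exactly 1 gene and 27 to several genes. No row could be tied to tefu, and none to any of the 71 listed marker, immune, DNA damage, cell cycle and stress genes, so neither the knockdown itself nor the cell type markers of the head are analysed here. The files give identifiers for the other rows without a gene. For that reason 2 transcripts that rose and 2 that fell are given by identifier, and the rest by counts and ranges.

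The 8 arrays had medians from 10.87 to 10.93 on the log2 scale. Replicate 1 of Elav-ATMi stood apart from the other 7 arrays. Across transcripts it correlated at 0.9765 to 0.9847 with the other Elav-ATMi arrays and at 0.976 to 0.979 with the Elav-GAL4 arrays, while all other pairs of arrays correlated at 0.984 or above. In that array 244 transcripts lay at least 2-fold above every other Elav array, with a median level of 9.49 there against 5.78 for the mean of the 7 others. Replicate 3 of Elav-ATMi had 70 such transcripts, and each of the 6 other arrays had 0 to 11. Of the 244 transcripts 1 was called in the test of the knockdown, and of the 70 none, where 1.12% of all transcripts were called. They were chosen for 1 array far above the others, which raises the spread in that test. Few calls thus follow from the choice, and the counts do not show how these arrays bear on the calls. The knockdown was tested with a term for 2 sets, replicates 1 and 2 against replicates 3 and 4, as the plan for these samples asked. Levels differed between these sets for 27 transcripts within Elav-ATMi and 53 within Elav-GAL4 (limma adjusted p under 0.05).

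In Elav-ATMi heads 107 transcripts rose (0.692% of all) and 66 fell (0.427%) in limma at a Benjamini-Hochberg adjusted p under 0.05 with the set term. Together they were 1.12% of the transcripts tested. The rises had a median log2 fold change of 1.35 and the falls of -0.94, and 79 rises and 30 falls were at least 2-fold. A change of at least 4-fold was measured for 31 rises and 8 falls. All 4 Elav-ATMi arrays lay above all 4 Elav-GAL4 arrays for 98 of the 107 rises, and all below for 57 of the 66 falls. Over all transcripts, called or not, 2.31% had all Elav-ATMi arrays above and 2.70% all below the control arrays, 5.01% together. Non-overlapping arrays bear on the same contrast as the test and add no separate support.

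The counts depended on single arrays. Without 1 Elav-ATMi array there were 79 rises and 40 falls (replicate 1 left out), 69 and 28 (replicate 2), 103 and 32 (replicate 3) or 64 and 30 (replicate 4). Without 1 Elav-GAL4 array there were 99 and 64 (replicate 1), 96 and 74 (replicate 2), 75 and 29 (replicate 3) or 71 and 24 (replicate 4). With no set term there were 80 rises and 35 falls, and with the replicate number as a block in its place 87 rises and 40 falls, of which 114 were among the 173. The falls numbered 24 to 74 over the arrays left out and the rises 64 to 103, so the count of falls is the less settled.

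**Figure D1:**
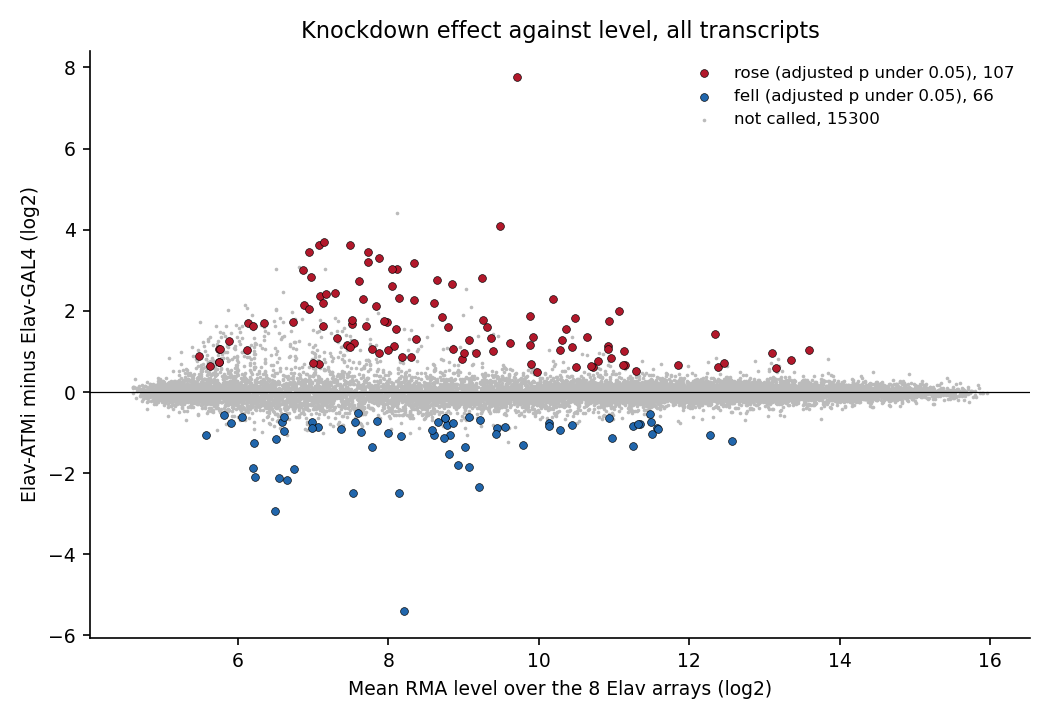
Log2 difference between Elav-ATMi and Elav-GAL4 (y) against the mean log2 RMA level over the 8 Elav arrays (x), 1 point per transcript, with the 107 rises in red, the 66 falls in blue and transcripts that were not called in grey. The calls lie mostly at low and middle levels, and 4 of the 173 lie in the brightest of 4 equal bins.

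Most called transcripts were dim or of middle level. When transcripts were split into 4 equal bins by their mean level over the 8 arrays, 63 called transcripts lay in the dimmest bin (1.63% of it), 80 in the second (2.07%), 26 in the third (0.672%) and 4 in the brightest (0.103%), all 4 of them rises. The median standard error of the log2 fold change was 0.15 in the dimmest bin and 0.11 in the brightest. The 107 rises had a median level of 9.47 in Elav-ATMi and 7.44 in Elav-GAL4 heads, and the 66 falls had 8.09 in Elav-ATMi and 9.21 in Elav-GAL4 heads, where the median of all transcripts was 10.90 and 10.89. Of the rises, 57.0% had an Elav-GAL4 mean within the dimmest 25% of transcripts, whose upper bound was 7.80. The files do not say which levels were above background, so the fold changes of these dim transcripts have no measured limit.

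FBtr0070073 had the largest rise. Its levels were 13.92, 13.58, 13.63 and 13.22 in the Elav-ATMi arrays, against 7.24, 5.69, 5.37 and 5.02 in the Elav-GAL4 arrays, each in the order of replicates 1 to 4. The lowest Elav-ATMi array was far above the highest control array, and the control arrays spread more widely (SD 0.29 in Elav-ATMi and 0.98 in Elav-GAL4, n = 4 each). The difference was 7.75 ± 0.34 on the log2 scale (SE, limma adjusted p = 2.96e-05). The mean level ranked at percentile 87.2 of all transcripts in Elav-ATMi heads and at percentile 12.4 in Elav-GAL4 heads. It was as high in the other genotypes with the UAS-RNAiATM transgene: it was at 14.20 and 14.33 in ElavC155-ATMi and 14.43 and 14.58 in Repo-ATMi, the glial knockdown, against 5.58 and 5.10 in ElavC155-GAL4 and 8.23 and 5.93 in Repo-GAL4. ATM8 homozygotes, which have a mutant ATM allele and no such transgene, were at 5.43 and 5.46, and ATM8 heterozygotes at 6.01 and 5.17. The ATM8 and Repo arrays had lower medians (10.45 to 10.63) than the Elav and ElavC155 arrays (10.84 to 10.93) and may have been normalized apart, so levels across these sets are set side by side without a test.

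FBtr0078518 had the next largest rise among transcripts whose groups did not overlap. It measured 11.19, 11.55, 11.68 and 11.69 in the Elav-ATMi arrays, against 8.04, 7.57, 7.31 and 6.85 in the Elav-GAL4 arrays. The groups were more than 3 log2 units apart at their nearest arrays. The difference was 4.08 ± 0.23 (SE, limma adjusted p = 1.07e-04). Its level was 9.11 and 9.05 in ElavC155-ATMi against 8.03 and 8.03 in ElavC155-GAL4, a smaller gap than with the Elav driver. It was also higher in the glial knockdown, at 10.20 and 10.30 in Repo-ATMi against 8.15 and 8.69 in Repo-GAL4. ATM8 homozygotes were at 6.10 and 6.57, against 6.32 and 7.03 in heterozygotes.

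FBtr0072462 had the largest fall. It was at 5.45, 4.84, 5.44 and 6.27 in the Elav-ATMi arrays, against 10.90, 10.37, 10.98 and 11.35 in the Elav-GAL4 arrays. Its mean ranked at percentile 8.0 of all transcripts in Elav-ATMi heads and at percentile 50.1 in Elav-GAL4 heads. The difference was -5.40 ± 0.23 (SE, limma adjusted p = 2.96e-05). It was near the same low level in ElavC155-ATMi (5.69 and 5.80, against 11.15 and 11.26 in ElavC155-GAL4). In the glial knockdown it was high in both groups, at 10.75 and 10.30 in Repo-ATMi and 11.67 and 11.61 in Repo-GAL4, and in ATM8 homozygotes it was at 7.38 and 6.60, against 11.33 and 11.09 in heterozygotes. This transcript was thus low in 2 knockdown genotypes and in the allele. In the third knockdown, whose flies carried the same transgene, it was also lower than in its control but by less (means 10.52 and 11.64). Differences between the strains and lowered ATM cannot be told apart here.

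FBtr0076962 had the next largest fall. It measured 5.22, 5.08, 5.21 and 4.56 in the Elav-ATMi arrays, against 7.66, 7.55, 8.13 and 8.49 in the Elav-GAL4 arrays, a difference of -2.94 ± 0.23 (SE, limma adjusted p = 4.98e-04). Its mean ranked at percentile 2.0 in Elav-ATMi heads and at percentile 25.9 in Elav-GAL4 heads, so the groups separated within the dim part of the range. It was also lower in ElavC155-ATMi (5.18 and 5.19, against 7.74 and 6.33 in ElavC155-GAL4). In the glial knockdown it was at 5.53 and 5.27 in Repo-ATMi, against 6.63 and 6.49 in Repo-GAL4. ATM8 homozygotes were at 5.82 and 5.44, and heterozygotes at 5.38 and 5.92.

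**Figure D2:**
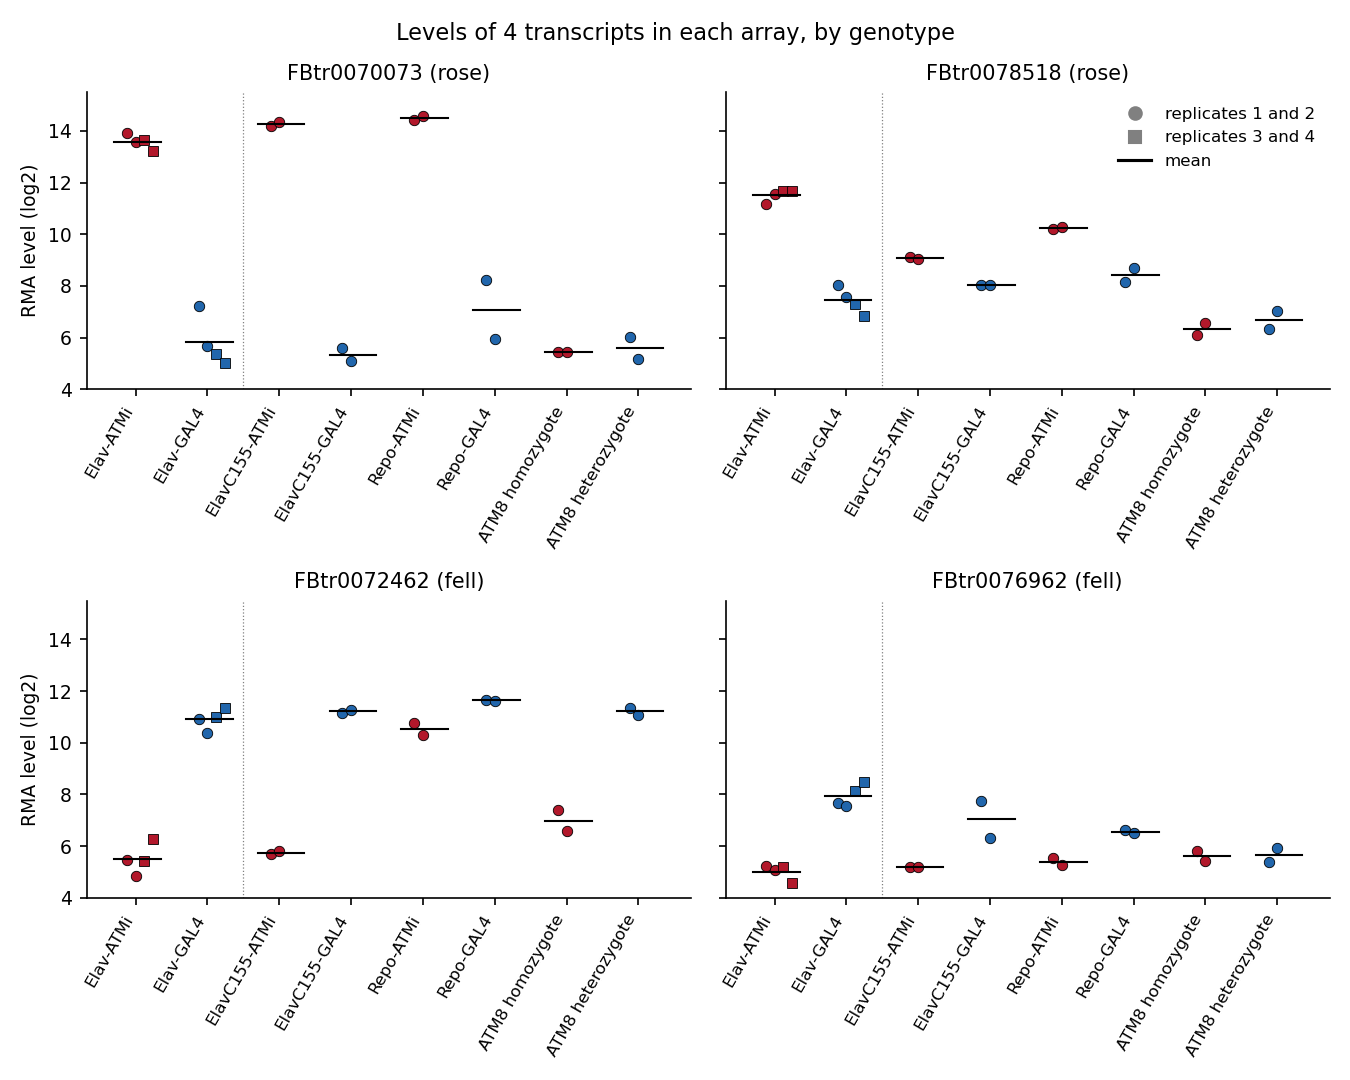
Log2 RMA levels of 4 transcripts in each of the 20 arrays by genotype, with knockdown or homozygous genotypes in red and their controls in blue, the mean as a line, and Elav replicates 3 and 4 as squares. FBtr0070073 is above 13 in every array with the UAS-RNAiATM transgene and below 9 in the others, and FBtr0072462 is below 8 in Elav-ATMi, ElavC155-ATMi and ATM8 homozygotes.

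The 10 largest rises, by the same rule, started from dim levels: their means ran from 8.68 to 13.59 in Elav-ATMi and from 5.22 to 7.44 in Elav-GAL4 heads. Their log2 fold changes ran from 3.18 to 7.75, with adjusted p-values from 1.24e-05 to 0.0325. The 10 largest falls ended at means from 5.02 to 8.03 in Elav-ATMi heads, against 7.13 to 10.90 in Elav-GAL4 heads, and their sizes ran from 1.87 to 5.40. The smallest called rise was 0.49 and the smallest called fall -0.51, so that 168 of the 173 called transcripts exceeded 1.5-fold.

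The sets of replicates share no array, so each gives a separate measurement of the difference between Elav-ATMi and Elav-GAL4. Among replicates 3 and 4 alone 54 transcripts were called, 36 higher and 18 lower (0.349% of all). Among replicates 1 and 2 alone 26 were called, 22 higher and 4 lower (0.168% of all). Of the 36 rises of replicates 3 and 4, 34 were also higher in replicates 1 and 2 and 31 of these had an unadjusted p under 0.05 there, as did 4.89% of all transcripts in either direction. Of the 18 falls, 18 were also lower and 15 had an unadjusted p under 0.05. All 22 rises and all 4 falls of replicates 1 and 2 went the same way in replicates 3 and 4, where 17 and 4 of them had an unadjusted p under 0.05, as did 9.97% of all transcripts. Over all transcripts the direction was shared by the sets in 56.3%.

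The sizes in the sets can be set side by side, each list being chosen in 1 of them. The 36 rises of replicates 3 and 4 had a median log2 fold change of 2.31 there and 2.07 in replicates 1 and 2, and the 18 falls had -1.58 and -1.41. The 22 rises of replicates 1 and 2 had a median of 2.85 in replicates 3 and 4 and 3.01 in replicates 1 and 2. The transcripts given by identifier were chosen on both sets together, so their shared direction was fixed by that choice and only the sizes are given. FBtr0070073 differed by 8.23 in replicates 3 and 4 and by 7.28 in replicates 1 and 2, and FBtr0072462 by -5.31 and -5.49. FBtr0078518 differed by 4.61 and 3.56, and FBtr0076962 by -3.43 and -2.46.

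The difference between the effects of the sets was tested as an interaction. It was called for 0 transcripts in limma, with 543 at an unadjusted p under 0.05 (3.51% of all). The count was 181 without Elav-ATMi replicate 2, which leaves replicate 1, the array that stood apart, as the sole Elav-ATMi array of its set, and 177 of these effects were more negative in replicates 3 and 4. It was 41 without Elav-ATMi replicate 4, and 0 without any other array. Over all transcripts, the called ones included, 229 were at least 2-fold higher in Elav-ATMi in replicates 3 and 4 and 304 in replicates 1 and 2, and 102 in both.

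**Figure D3:**
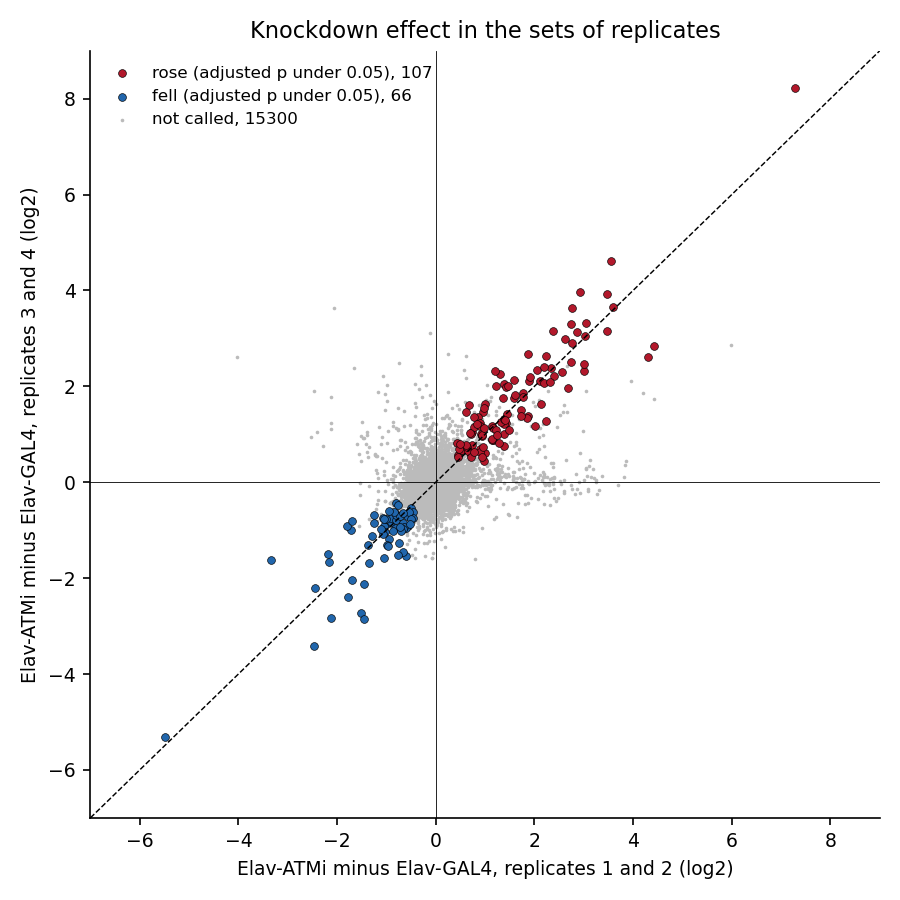
Log2 difference between Elav-ATMi and Elav-GAL4 in replicates 3 and 4 (y) against that in replicates 1 and 2 (x), 1 point per transcript, with rises in red, falls in blue, transcripts not called in grey and equality as a dashed line. The called transcripts lie along the line, as they were chosen on both sets together, while a group of grey points is high in replicates 1 and 2 and near 0 in replicates 3 and 4.

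The levels themselves also differed between the sets. In replicates 3 and 4, 147 transcripts were higher and 203 lower than in replicates 1 and 2 (limma adjusted p under 0.05, 2.26% of all). These changes had a median size of 0.77 on the log2 scale, against 1.14 for the 173 transcripts called for genotype, and 94 of them were at least 2-fold. Of the transcripts called for genotype, 16 (9.25%) were also called for set, and these were 4.57% of those called for set. The count of 350 was 175 without Elav-ATMi replicate 1, 67 without replicate 2, 125 without replicate 3 and 102 without replicate 4 of the same genotype, and 553 without Elav-GAL4 replicate 1 and 66 without Elav-GAL4 replicate 3. Whether more transcripts were called for set or for genotype turned with the array left out. More were called for genotype without Elav-GAL4 replicate 3 (66 for set and 104 for genotype), Elav-ATMi replicate 2 (67 and 97) or Elav-ATMi replicate 3 (125 and 135). More were called for set in the fit of all 8 arrays (350 and 173) and without any other single array. The latter counts ran from 102 and 94 without Elav-ATMi replicate 4 to 553 and 163 without Elav-GAL4 replicate 1. No label says what separates the sets.

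The 17 transcripts with a gene name lay at percentiles 17.4 to 96.9 of mean level, most of them brighter than the median transcript. Of these, 0 passed the test (limma, lowest adjusted p = 0.105), where 1.12% of all transcripts did. The share called was lower among bright transcripts, 0.672% in the third bin and 0.103% in the brightest. A count of 0 of 17 is near those shares and says little about these genes. There were 9 with a positive and 8 with a negative log2 fold change, with a median of 0.01. For 14 the size was under 0.2, and the groups of arrays overlapped for all 17. Leaving out CG31178, the 95% intervals of the other 16 all held 0 and none reached beyond 0.78 in size, short of a 2-fold change.

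CG31178 had the largest difference of the 17 and the only unadjusted p under 0.05. Its levels were 6.62, 6.55, 6.18 and 5.60 in the Elav-ATMi arrays, against 7.11, 7.16, 6.43 and 6.59 in the Elav-GAL4 arrays. Within each set the Elav-ATMi arrays lay below the Elav-GAL4 arrays. Across the sets the groups overlapped, since Elav-ATMi replicates 1 and 2 lay above the lowest control array. The difference was -0.58 ± 0.13 (SE, 95% interval -0.88 to -0.28, limma adjusted p = 0.105). It was -0.61 in replicates 3 and 4 and -0.55 in replicates 1 and 2. Its level was also lower in replicates 3 and 4 than in replicates 1 and 2 of both genotypes, by -0.66 ± 0.13 (limma adjusted p = 0.0456). It is a dim transcript, at percentile 15.2 in Elav-ATMi and 19.5 in Elav-GAL4 heads. With the ElavC155 driver the difference was -0.40 ± 0.18 (adjusted p = 0.689).

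Chromatin genes made up 4 of the 17. kis, a chromatin-remodelling ATPase of the trithorax group, averaged 14.16 ± 0.16 in Elav-ATMi and 14.17 ± 0.23 in Elav-GAL4 heads (SD, n = 4 each), and HDAC3, a histone deacetylase, 11.81 ± 0.22 and 11.71 ± 0.07. SuUR, which holds back replication of heterochromatin in polytene chromosomes, had a log2 difference of -0.10 ± 0.11 (SE). His4r, a histone gene that is expressed outside S phase, had -0.31 ± 0.21, with Elav-ATMi arrays from 9.12 to 9.89 and control arrays from 9.24 to 10.21. The 4 were not called, and their adjusted p-values in limma ran from 0.724 to 0.99.

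Both mio and Wdr24 encode members of the GATOR2 complex, which relays amino acid supply to TORC1. Wdr24 averaged 12.81 ± 0.03 in Elav-ATMi and 12.63 ± 0.11 in Elav-GAL4 heads (SD, n = 4 each). Its difference was 0.18 ± 0.09 (SE, limma adjusted p = 0.612), and the highest control array, at 12.79, lay above the lowest Elav-ATMi array, at 12.78. For mio the difference was 0.04 ± 0.10. With ElavC155 the difference of Wdr24 was -0.31 ± 0.12, and the Elav effect minus the ElavC155 effect was 0.49 ± 0.15, which did not pass (limma adjusted p = 0.597).

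Membrane, matrix and transport genes were close to equal. alpha-Spec, a spectrin of the membrane skeleton, differed by -0.09 ± 0.12, and LanA, the alpha chain of laminin in basement membranes, by 0.11 ± 0.17 (SE). Fatp1, a fatty acid transport protein, averaged 14.12 ± 0.20 in Elav-ATMi and 14.11 ± 0.25 in Elav-GAL4 heads (SD, n = 4 each), and NaPi-III differed by 0.04 ± 0.11. Among the genes of protein turnover and signalling, Uba1, the ubiquitin-activating enzyme, differed by -0.09 ± 0.13. For rdx, a substrate adaptor of a cullin ubiquitin ligase that acts in Hedgehog signalling, the difference was 0.21 ± 0.14, and for Dyrk3, a protein kinase, -0.03 ± 0.14. The nucleolar protein gene sle had 0.14 ± 0.12, fend -0.05 ± 0.09 and CG16974 0.04 ± 0.09.

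**Figure D4:**
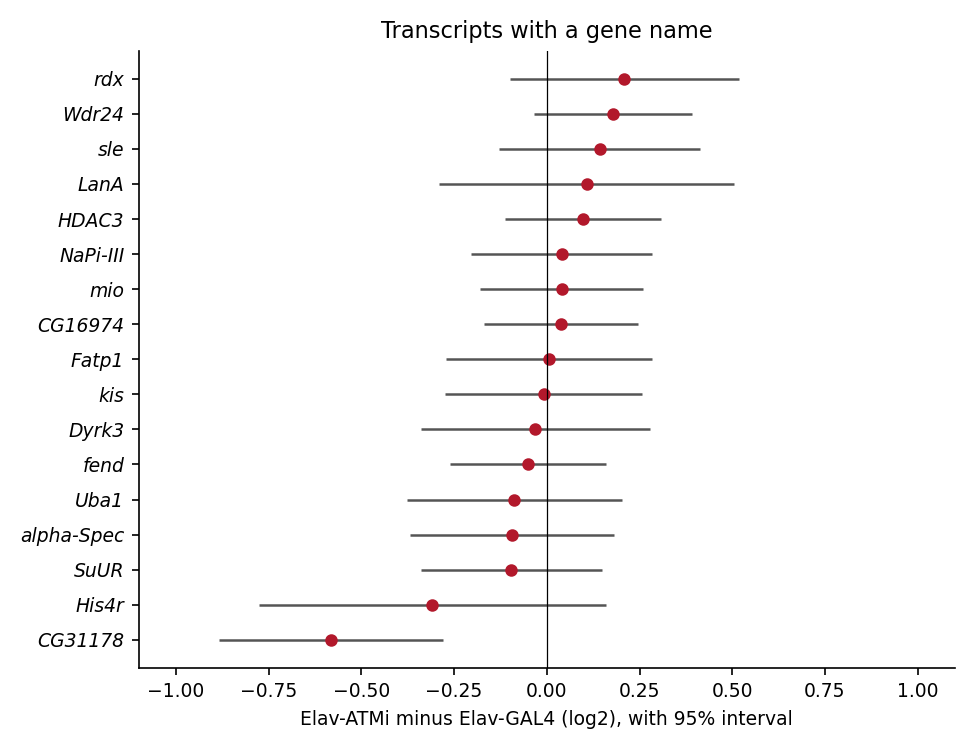
Log2 difference between Elav-ATMi and Elav-GAL4 (x, points) with its 95% interval (bars) for the 17 transcripts that the gene table ties to a single gene (y). The interval of CG31178 lies below 0, and the 16 others hold 0.

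The ElavC155 arrays gave a comparison of flies with and without UAS-RNAiATM that shares no array with the Elav comparison. As with Elav, RNA interference and presence of the transgene cannot be told apart in it. Of the 107 rises with Elav, 95 were higher in ElavC155-ATMi heads (88.8%, against 51.3% of all transcripts), with a median log2 fold change of 1.35 with Elav and 0.65 with ElavC155. Of the 66 falls, 56 were lower (84.8%, against 48.7% of all transcripts), with medians of -0.94 and -0.55. In limma, fitted to the 12 Elav and ElavC155 arrays, 23 of the rises and 11 of the falls were called the same way with ElavC155 and 0 the opposite way. Of all transcripts 0.498% were called with ElavC155, 0.310% higher and 0.187% lower. The shared rises were 21.5% of the Elav rises and 47.9% of the 48 ElavC155 rises, and the shared falls 16.7% and 37.9% of the 29 ElavC155 falls. The lists were chosen on the Elav arrays, so their larger size with Elav is no test of a difference. The spread in this fit was estimated from all 12 arrays. From the 4 ElavC155 arrays alone, 6 transcripts were called.

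The effects of the drivers were then compared directly. The Elav effect minus the ElavC155 effect was called for 13 transcripts (0.0840% of all), more positive with Elav for 10 and more negative for 3. Of the 13, 7 were among the 107 rises with Elav and 1 among the 66 falls. Of all transcripts 0.692% were among those rises and 0.427% among those falls. The same Elav arrays enter both tests, so overlap between the lists is built in and is no separate result. With the replicate number as a block 6 were called, 4 of them among the 13. The count was 1 and 6 without ElavC155-ATMi replicate 1 or 2, 5 and 2 without ElavC155-GAL4 replicate 1 or 2, 32 without Elav-ATMi replicate 3, and 7 and 5 without Elav-GAL4 replicate 2 or 3.

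Among the transcripts given by identifier, FBtr0078518 had the larger effect with Elav, at 4.08 against 1.05 ± 0.30 with ElavC155, a difference of 3.04 ± 0.37 (SE, limma adjusted p = 0.020). It was named for its large Elav effect, which enters this difference. Its call was lost with the replicate number as a block (adjusted p = 0.081), without Elav-GAL4 replicate 2 (0.050) or 3 (0.063), and without any of the 4 ElavC155 arrays (0.069 to 0.137), while the difference itself stayed between 2.84 and 3.23. For FBtr0072462 the difference between drivers was 0.06, with a 95% interval from -0.73 to 0.85. For FBtr0070073 it was -1.17 ± 0.55 (adjusted p = 0.911) and for FBtr0076962 -1.09 ± 0.52 (adjusted p = 0.913).

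The 10 largest rises with Elav varied widely with the other driver. With ElavC155 their log2 fold changes ran from -0.18 to 8.93, 3 were called higher, and 4 were called in the difference between drivers. Of all transcripts 0.310% were called higher with ElavC155 and 0.0840% in the difference. These 10 were chosen for their large Elav effect, which enters the difference, so their calls there are no test of the drivers. Their mean levels in ElavC155-GAL4 heads ran from 5.25 to 10.41, against 5.22 to 7.44 in Elav-GAL4 heads. The highest of them was thus at a middle level in the other driver line without the transgene. Whether such levels bear on the effects was not tested. Of the 10 largest falls 9 were lower with ElavC155, 3 were called lower (0.187% of all transcripts were) and 0 were called in the difference.

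**Figure D5:**
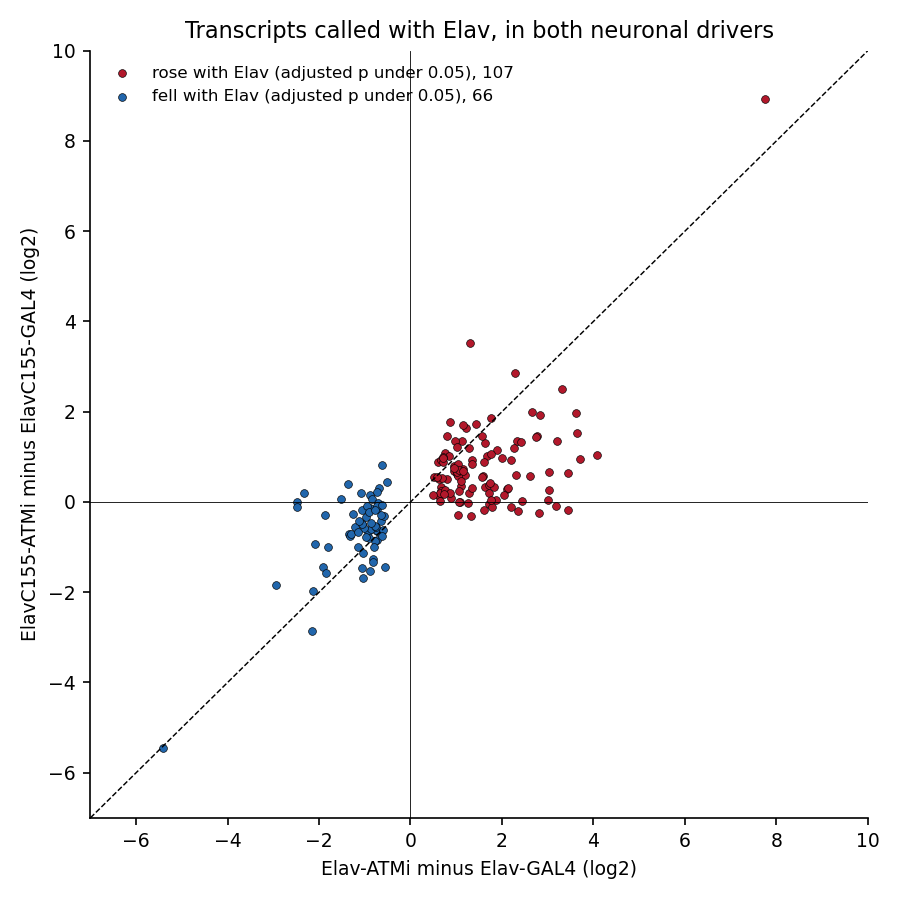
Log2 difference between ElavC155-ATMi and ElavC155-GAL4 (y) against that between Elav-ATMi and Elav-GAL4 (x) for the 107 rises (red) and 66 falls (blue) called with Elav, with equality as a dashed line. Most points share their direction with both drivers and lie nearer to 0 on the ElavC155 axis.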

How the data were processed

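Levels are the authors' deposited log2 values, from single-colour NimbleGen arrays (Cy3), summarized per transcript by RMA, per the submitters' processing notes. The sources used here give no RMA version, probe design or annotation release, nor whether all arrays were normalized together. Replicates were not pooled and 0 values were missing.

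From these values, two-sided moderated tests of limma (version 3.58.1, R 4.3.3, default eBayes) were run on the 8 Elav arrays with genotype and set (replicates 1 and 2, or 3 and 4) as terms, with 5 residual and 3.54 prior degrees of freedom. The difference from ElavC155 was an interaction contrast over 12 arrays. P-values were adjusted over 15473 transcripts by Benjamini-Hochberg, called under 0.05. The procedure was tested on simulated data. Gene names came from RefSeq's table for Release 6 of the fly genome.

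Transcripts and lists were chosen with earlier results of these data known. Named were every row tied to 1 gene, and the 2 largest rises and 2 largest falls among called transcripts whose groups did not overlap. Same-numbered arrays of the genotypes deviated together from their group means (correlations 0.119, 0.172, 0.243 and 0.169 for replicates 1 to 4). Within sets these correlations were -0.017 and -0.002, so no pairing by replicate number was seen beyond the sets. Alternatives covered the set term, the replicate block, the arrays fitted, normalization, the variance prior, array weights, dim transcripts and each array left out. No array duplicated another. The number of arrays limits the precision.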

Additional observations from a re-analysis of the deposited data

Results flagged for a closer look

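Among 42 groups of 4 arrays (21 named transcripts in Elav-ATMi and Elav-GAL4), 3 held an array far from the other 3, where chance gives about 1 in 20. All 3 were replicate 2 of Elav-GAL4: mio was at 12.06 there against 11.72 to 11.78 in the other controls, Fatp1 at 14.48 against 13.97 to 14.03, and kis at 13.83 against 14.26 to 14.30. The effects of the neuronal drivers differed for 13 transcripts in the interaction test, and FBtr0078518 was among them, with an Elav effect larger by 3.04 on the log2 scale.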

How the results depend on the processing

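The 173 transcripts called for the Elav knockdown became 115 with no set term, 337 in a fit of all 20 arrays, 260 in a fit of the 12 Elav and ElavC155 arrays, 26 among replicates 1 and 2, 54 among replicates 3 and 4, and 94 to 170 with 1 array left out. With the replicate number as a block 127 were called, 114 of them among the 173, with 40 falls in place of 66. Of the transcripts given by name or identifier, the block changed the call of FBtr0078518 in the driver comparison and no other. With the block, added after seeing the data, the interaction between sets was called for 0 transcripts, with 471 at an unadjusted p under 0.05. The level of the sets cannot be fitted with it, since each set is made of replicate numbers. The interaction between sets, called for 0 transcripts, was called for 2 with trend and robust settings and for 0 to 181 with 1 array left out. The count of 350 for the sets ran from 66 to 553 with 1 array left out. The 13 transcripts that differed between drivers became 8 with no set term, 6 with the replicate block, 23 with all 20 arrays, 21 with trend and robust settings, and 1 to 32 with 1 array left out. The cause of these shifts was not tested. The 4 transcripts given by identifier kept their call in all alternatives for the knockdown. They were chosen as large called changes on these same arrays, so their direction was fixed by that choice and their calls are no separate support. None of the 17 with a gene name was called in any alternative. CG31178 came nearest, at limma adjusted p-values from 0.055 to 0.75. FBtr0076962 and CG31178 were not tested where the dimmest 25% was left out.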
